A study of Homo sapiens with 18 samples.

Results

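The 150 most abundant long noncoding RNA genes of MDA-MB-231 cells were followed across a knockout of IMPDH2 and 4 ways of supplying guanine nucleotides or the enzyme to the knockout cells. A gene was eligible when every transcript of it carried the lncRNA biotype in the deposited names, and the small nucleolar RNA host genes SNHG, GAS5, DANCR, EPB41L4A-AS1 and ZFAS1 were left out. That left 18787 eligible genes of 62749 in all, and the 150 with the highest count summed over all 18 libraries were taken. The genes were thus chosen by their summed count, so their abundance is given as a description with no test. The last gene inside, ENSG00000291072, had 13092 summed counts, and the first outside, FAM151B-DT, had 13082.

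Messenger RNA was sequenced in 6 groups of 3 libraries each. KO+G cells carried the IMPDH2 knockout and were grown with 400 µM guanosine. KO+IMPDH2, KO+Nuclear-IMPDH2 and KO+Cyt-IMPDH2 cells carried the knockout and were given back the enzyme without a stated location, in a nuclear form or in a cytosolic form. KO cells carried the knockout and WT cells did not, and neither these 2 groups nor the 3 given-back groups received guanosine. MDA-MB-231 is a triple-negative breast cancer line. The labels do not say whether the knockout is 1 clone, what drives the given-back gene, or whether the 3 libraries of a group were separate cultures, so every p below measures the spread between these libraries, which may be technical.

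IMPDH2 catalyses the rate-limiting step of guanine nucleotide synthesis, and guanosine can feed the same pool by salvage. Long noncoding RNAs are transcribed and spliced like messenger RNAs but carry no long reading frame. Some build nuclear bodies, some bind proteins in the cytoplasm, some host microRNAs, and many lie beside or across a coding gene and share its promoter region. Libraries were made by poly(A) selection, and such libraries take up RNAs without a poly(A) tail poorly, among them the long form of NEAT1 and the processed 3′ end of MALAT1.

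Libraries held 45.9e6 to 63.3e6 estimated counts. IMPDH2 had 22.1 ± 0.11 CPM in KO+G cells, 532.2 ± 10.4 in KO+IMPDH2 cells, 297.4 ± 12.6 in KO+Nuclear-IMPDH2 cells, 378.7 ± 13.9 in KO+Cyt-IMPDH2 cells, 41.6 ± 0.566 in KO cells and 318.8 ± 0.557 in WT cells. CPM are counts scaled to a common library size with TMM factors, and each ± is an SD over n = 3 libraries. All 6 markers fixed for this mesenchymal line were present, with VIM at 1990 to 2880 TPM and CD44 at 457 to 690 TPM. Of 8 markers of luminal or other breast cells, ESR1, PGR, FOXA1 and CDH1 stayed at or under 0.398 TPM in every library. The other 4 were present, with KRT8 at 71.2 to 258, ERBB2 at 15.9 to 27.4, EPCAM at 7.65 to 14.8 and GATA3 at 1.49 to 3.73 TPM. Among markers of other cell types, PTPRC, CDH5 and ALB stayed at or under 0.194 TPM, while COL1A1 reached 3.93 and PECAM1 2.13 TPM.

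Among the 150 genes, 45 had a name of their own, 44 had only an Ensembl identifier, 27 were named as antisense to a coding gene, 21 were LINC genes, 9 were divergent transcripts of a coding gene, 3 were microRNA hosts and 1 was an overlapping transcript. All 150 passed the filter on low counts. The genes took 0.522% to 0.788% of all counts and 55.0% to 58.1% of the counts on eligible lncRNA genes. NORAD alone held 11.3% of their counts, the first 2 genes held 22.3%, the first 10 held 42.1% and the first 50 held 70.8%. Counts grow with transcript length: ranked by TPM, 84 of the 150 remained among the top 150. Ranked in 1 group at a time, between 129 (in WT) and 144 (in KO+IMPDH2 and in KO+Nuclear-IMPDH2) remained, and 107 remained in every group. The symbols of 22 genes are of a pseudogene type, such as DUXAP8, DUXAP9, DUXAP10 and AADACP1, and reads shared with near-identical copies make their counts uncertain.

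Per length, the top of the list held NEAT1 with a mean of 261.6 TPM over all libraries, CYTOR with 185.3, NORAD with 166.0, MANCR with 120.1, DUXAP9 with 97.7 and LINC03061 with 87.2 TPM. ENSG00000293320 and ENSG00000283907, which have no symbol, averaged 638.2 and 315.1 TPM. ENSG00000289474 averaged 5508 TPM, but its transcript is 116 bases long with an effective length of 3 bases, and it had 5.58 to 25.5 CPM. ENSG00000290032, 248 bases long with an effective length of 18, likewise averaged 907.2 TPM. For this pair the TPM level cannot be used, and with so short an effective length their fold changes below call for caution.

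Some of these RNAs carry microRNAs within their gene, and the sequences are shown because the host is what was measured here, not the microRNA. With 1 chromosome not searched, the RefSeq table (GRCh38.p14) places 17 hairpins on the strand of 9 of the 150 genes. Capitals mark the seed, bases 2 to 8. MIR100HG holds 3 conserved microRNAs with 3 different seeds, at chr11:122099809-122099830, chr11:122146568-122146589 and chr11:122152275-122152296, all on the minus strand:
hsa-miR-125b-5p: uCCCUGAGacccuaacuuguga
hsa-let-7a-5p: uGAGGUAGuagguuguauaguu
hsa-miR-100-5p: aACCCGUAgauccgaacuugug

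LINC00472 holds a pair with 1 shared seed, at chr6:71403595-71403616 and chr6:71377003-71377025 on the minus strand:
hsa-miR-30a-5p: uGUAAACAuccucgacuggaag
hsa-miR-30c-5p: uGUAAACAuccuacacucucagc

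MIR23AHG holds a cluster on chromosome 19, minus strand, between 13836289 and 13836651, with 3 different seeds in the arms shown:
hsa-miR-23a-3p: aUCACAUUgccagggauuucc
hsa-miR-27a-3p: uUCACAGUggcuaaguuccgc
hsa-miR-24-3p: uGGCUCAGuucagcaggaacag

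As a group the 150 genes took most counts in KO libraries and fewest in WT libraries. Their share of all counts was 0.666% ± 0.0125 in KO+G cells, 0.647% ± 0.00917 in KO+IMPDH2 cells, 0.633% ± 0.0134 in KO+Nuclear-IMPDH2 cells, 0.655% ± 0.0116 in KO+Cyt-IMPDH2 cells, 0.780% ± 0.00749 in KO cells and 0.540% ± 0.0154 in WT cells. The 3 KO libraries lay above all 15 others and the 3 WT libraries below all others. No test of these shares is given, since the genes were chosen by counts summed over the same libraries. Most of those libraries carried the knockout, so a low WT share can be partly built in by the choice. Ranked in 1 group alone, 132 of the 150 genes remained in KO cells and 129 in WT cells. Without NEAT1 the share was 0.671% in KO cells and 0.50% in WT cells, a difference of 0.171 percentage points, against 0.241 with NEAT1. In bulk RNA, a change in how many cells make an RNA and in how much each cell makes cannot be told apart.

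**Figure D1:**
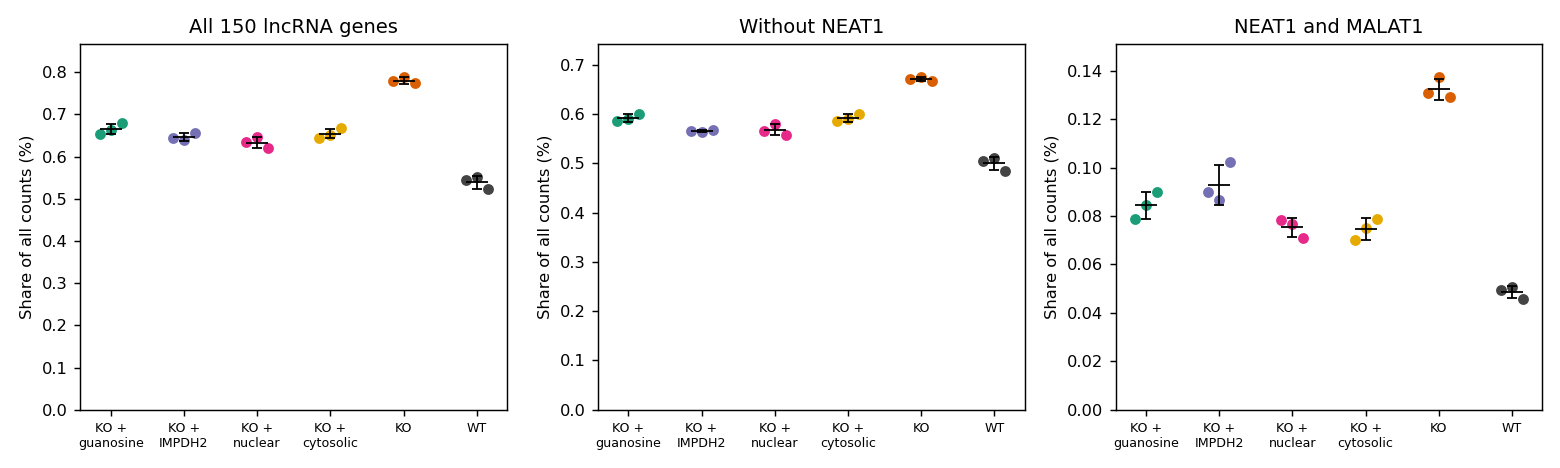
Share of all counts (%) taken by the 150 lncRNA genes, by the same genes without NEAT1, and by NEAT1 with MALAT1, in each library; the black mark and bar are the mean and SD of 3 libraries. KO libraries are highest in all 3 panels and WT libraries lowest.

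By group means, 70 of the 150 genes were highest in KO cells, 33 in WT cells, 26 in KO+G cells, 15 in KO+Cyt-IMPDH2 cells, 5 in KO+Nuclear-IMPDH2 cells and 1 in KO+IMPDH2 cells. WT cells held the lowest mean for 71 genes and KO cells for 28. As with the shares, a low WT mean can be partly built in by the choice of genes. The highest group mean was a median of 1.58 times the lowest. This ratio reached 4.61 for NOP14-AS1, was at least 2 for 39 genes and was lowest, 1.11, for MSL3P1. In edgeR's quasi-likelihood F test over the 6 groups 144 of 150 genes passed an adjusted p of 0.05, where 82.8% of all 19252 tested genes and 92.7% of coding genes passed.

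The comparison of KO with WT cells asks what differs when IMPDH2 is lost. Of the 150 genes 85 were higher in KO cells and 39 lower, and 26 did not pass. Of all tested genes 72.7% passed, 35.9% higher and 36.8% lower, and among the 9440 genes at or above the level of the lowest lncRNA gene here 84.9% passed, 33.8% higher and 51.1% lower. The share called was thus close to that of genes of like level, while the split ran to higher. The genes were chosen by counts summed over these libraries, most of which carried the knockout. Part of this split can thus be built in by the choice. Among the other eligible lncRNA genes 41.7% were higher and 15.2% lower. The median log2 fold change of the 150 genes was 0.24, against 0.01 for all genes and 0.44 for the other lncRNA genes. At least 2-fold differences were counted for 31 higher and 4 lower genes, and of all genes 12.8% were called and at least 2-fold higher and 9.97% at least 2-fold lower.

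The RNAs of nuclear bodies were higher in KO cells. NEAT1 (chr11:65422774-65445540, plus strand), the scaffold of paraspeckles, had 1014, 1072 and 1010 CPM in KO libraries, against 426.2, 432.2 and 396.5 CPM in WT libraries. The groups did not overlap, and the log2 fold change was 1.30 ± 0.06 (SE; edgeR adjusted p = 1.05e-12). MALAT1 (chr11:65497688-65506516, plus strand), which sits in nuclear speckles beside splicing factors, had 225.4, 225.9 and 209.2 CPM in KO libraries, against 96.1, 101.9 and 90.1 CPM in WT libraries. It too was separated in every library, with a log2 fold change of 1.20 ± 0.06 (edgeR adjusted p = 1.51e-12).

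NEAT1 has a short polyadenylated form and a long form that builds the paraspeckle core. The long transcript of 22743 bases ran against the gene's total. It had 0.707, 0.807 and 0.762 TPM in KO libraries, against 2.08, 2.20 and 1.93 TPM in WT libraries. The other NEAT1 transcripts together had 395.6 ± 16.2 TPM in KO cells and 140.5 ± 7.09 TPM in WT cells. The long form was 0.191% ± 0.00812 of NEAT1 TPM in KO cells and 1.45% ± 0.0231 in WT cells, with 0.360% in KO+G, 0.361% in KO+IMPDH2, 0.393% in KO+Nuclear-IMPDH2 and 0.320% in KO+Cyt-IMPDH2 cells. Its own level averaged 0.955, 1.09, 0.920 and 0.727 TPM in those groups, against 0.758 in KO and 2.07 in WT cells. With the cytosolic form it was thus no higher than in KO cells, while the other transcripts were lower, at 226.4 TPM. These levels rest on how the authors' quantification divided reads between overlapping transcripts, and poly(A) selection takes up the long form poorly.

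Genes of paraspeckle proteins mostly ran the other way. Of 18 listed, 16 were lower in KO than in WT cells and 2 higher, with a median log2 fold change of -0.46 against 0.01 for all genes. Of all tested genes 36.8% were lower and 35.9% higher, and the genes of like level described above also leaned to lower. SFPQ, a core protein that binds NEAT1, had 226.9 ± 8.15 CPM in KO cells and 426.3 ± 14.6 CPM in WT cells (log2 fold change -0.91 ± 0.03, edgeR adjusted p = 3.59e-15). RBMX was lower by a log2 fold change of -1.07 and EWSR1 by -0.87. The 2 higher were PSPC1, with 0.54, and CPSF7, with 0.06, named after their values were seen. A list of 22 genes of nuclear RNA decay was mixed, with 10 higher and 6 lower. EXOSC10, a nuclease of the nuclear exosome, was lower at -1.37 ± 0.04 and EXOSC5 higher at 0.72 ± 0.03.

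NORAD (chr20:36045622-36050960, minus strand), a cytoplasmic RNA that binds Pumilio proteins and is known for its part in genome stability, did not pass. It had 673.2, 691.2 and 679.6 CPM in KO libraries, against 670.6, 702.9 and 672.4 CPM in WT libraries. The ranges overlapped, and the 95% interval of the log2 fold change was -0.06 to 0.06 (edgeR adjusted p = 0.975). MANCR, a mitosis-associated RNA studied in breast cancer, likewise had 97.2 CPM on average in KO cells and 96.9 CPM in WT cells.

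NOP14-AS1 (chr4:2934899-2961738, plus strand) showed the largest called difference. It had 57.9, 55.2 and 59.4 CPM in KO libraries, against 13.2, 11.6 and 12.7 CPM in WT libraries, a log2 fold change of 2.20 ± 0.05 (edgeR adjusted p = 4.58e-17). ENSG00000291126, a gene without a symbol, followed with 2.13 and ITGB2-AS1 with 2.11 on the log2 scale. AADACP1, a pseudogene of an esterase on chromosome 3, had 62.1, 59.3 and 57.7 CPM in KO libraries, against 13.5, 14.1 and 14.7 CPM in WT libraries. Its groups did not overlap, and the log2 fold change was 2.08 ± 0.04. Next came ENSG00000289474 with 2.05, LINC00452 with 1.91, ENSG00000264772 with 1.90 and ENSG00000268858 with 1.85 on the log2 scale. ENSG00000264772 shares exons on its strand with EIF4A1 and CD68, so its reads may be split with theirs. ENSG00000289474 is the 116-base transcript described above, so its value calls for caution.

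The DUXAP genes, pseudogene-derived RNAs of similar sequence, were all higher in KO cells: the log2 fold changes were 1.39 for DUXAP8, 1.26 for DUXAP9 and 1.27 for DUXAP10. Among genes tied to p53, PURPL, described elsewhere as a p53-induced RNA that holds p53 down, had 30.2 ± 1.32 CPM in KO cells and 13.2 ± 2.28 CPM in WT cells. The log2 fold change was 1.20 ± 0.09 (edgeR adjusted p = 1.28e-09), and whether p53 played a part was not tested. LUCAT1, a stress-induced RNA described in smokers' airway cells, was higher by 1.22 ± 0.08. LINC00472, host of the miR-30 pair shown above, had 102.9 ± 2.37 CPM in KO cells and 49.4 ± 3.09 CPM in WT cells, a log2 fold change of 1.06 ± 0.05.

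All 3 genes named as microRNA hosts were lower in KO cells, and of all tested genes 36.8% were lower. MIR100HG (chr11:122028327-122556721, minus strand) had 22.7, 22.1 and 23.6 CPM in KO libraries, against 52.5, 54.2 and 56.5 CPM in WT libraries. The groups did not overlap, and the log2 fold change was -1.25 ± 0.05 (edgeR adjusted p = 4.40e-14). MIR22HG was lower by a log2 fold change of -0.79 ± 0.06. MIR23AHG was lower by -0.28 ± 0.10 (edgeR adjusted p = 0.0152), and its groups overlapped, with 17.5 to 18.9 CPM in KO libraries and 18.7 to 24.2 CPM in WT libraries. FTX, from the X-inactivation centre and host of miR-374 and miR-421, was lower by -0.93 ± 0.08, while JPX, from the same centre, did not pass at 0.09 ± 0.05. The other genes holding a RefSeq hairpin were mixed. LINC00472, GABPB1-AS1, ENTPD1-AS1 and MUC20-OT1 were higher, by 1.06, 1.45, 0.91 and 0.18. CYTOR and STAG3L5P-PVRIG2P-PILRB were lower, by -0.32 and -0.26.

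PVT1, beside MYC, was higher by 0.32 and CASC8, from the same region, by 0.37. CYTOR, named for its effect on the cytoskeleton, was lower by -0.32, CRNDE by -0.31 and OIP5-AS1, an RNA that binds miR-7, by -0.25. LINC01116, on the hypoxia list, was higher by 0.27.

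LINP1 (chr10:6709530-6740532, plus strand) is an RNA of triple-negative breast cancer that holds Ku and DNA-PKcs together in DNA end joining. It had 14.9, 13.5 and 15.4 CPM in KO libraries, against 25.2, 23.4 and 23.7 CPM in WT libraries. No KO library reached the WT range, and the log2 fold change was -0.72 ± 0.05 (edgeR adjusted p = 3.83e-10). SLCO4A1-AS1 (chr20:62663019-62666724, minus strand) had 14.98, 20.7 and 18.03 CPM in KO libraries, against 35.2, 32.4 and 33.6 CPM in WT libraries, a log2 fold change of -0.91 ± 0.08. The remaining largest differences downward were ENSG00000293252 with -1.25, ENSG00000258964 with -1.11, ENSG00000261786 with -1.05 and LINC02693 with -0.85. ENSG00000258964 shares exons on its strand with HIF1A and SNAPC1, and LINC02693 with C17orf51, so their reads may be split with those genes.

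**Figure D2:**
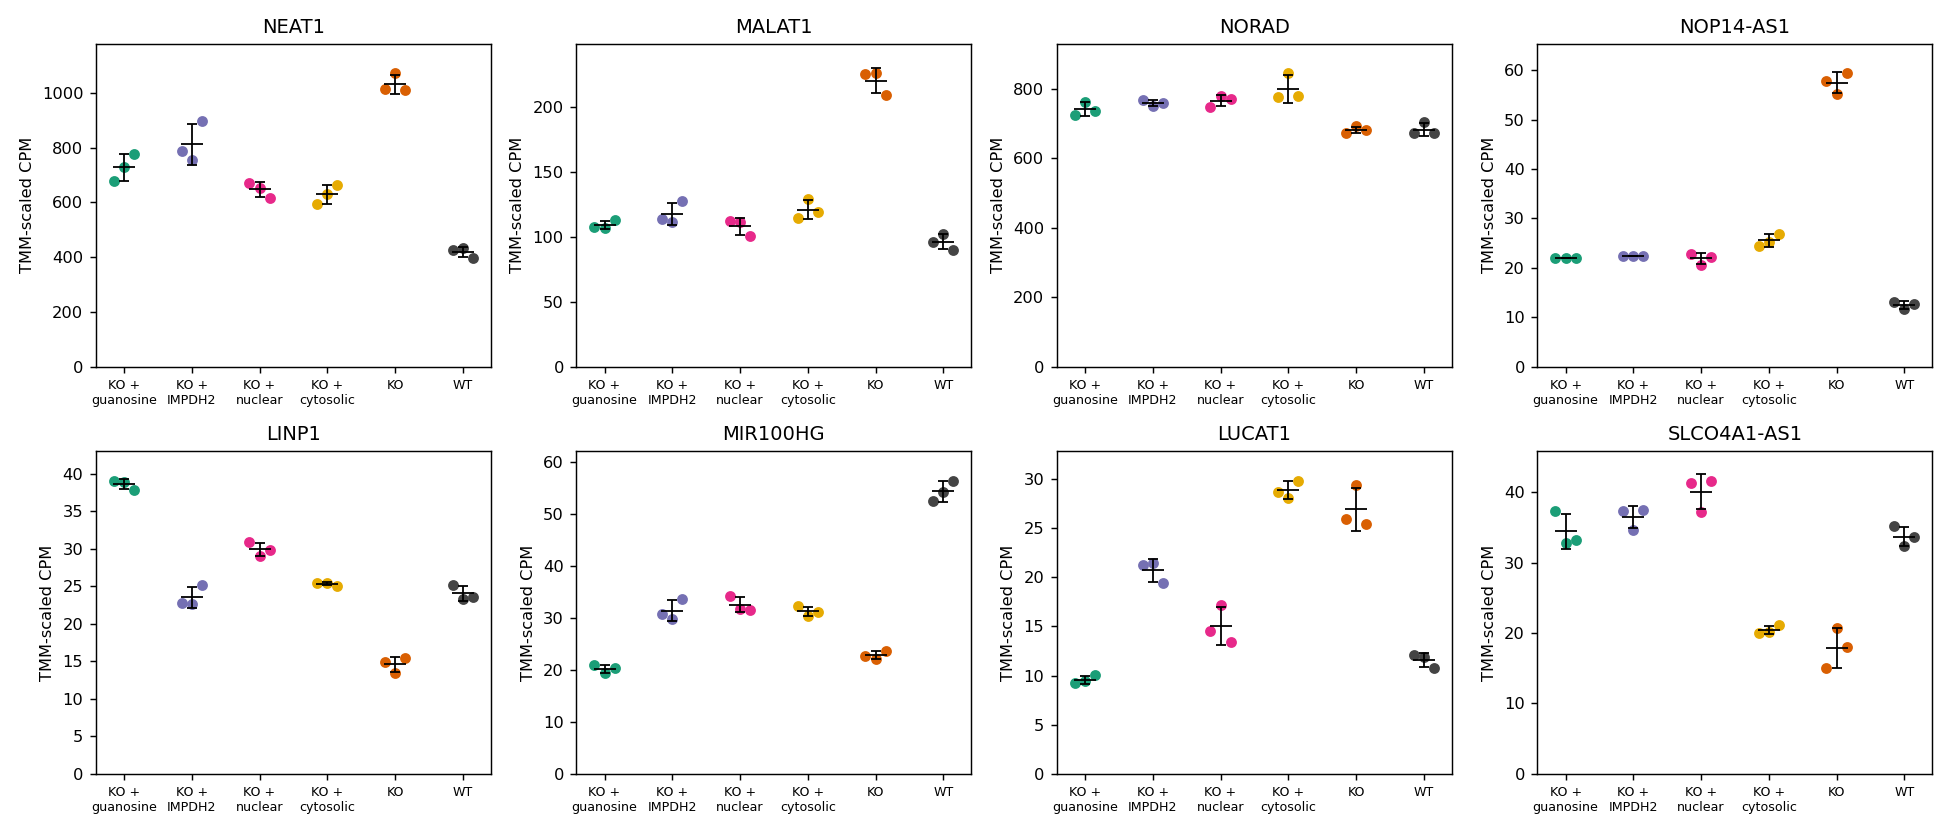
TMM-scaled CPM of 8 lncRNA genes in each library by group; the black mark and bar are the mean and SD of 3 libraries, and each vertical axis starts at 0. NEAT1, MALAT1 and NOP14-AS1 are highest in KO, MIR100HG is highest in WT, and LUCAT1 and SLCO4A1-AS1 differ between the nuclear and the cytosolic form.

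By kind of symbol, 7 of the 9 divergent transcripts were higher in KO than in WT cells and 1 lower, with a median log2 fold change of 0.89. Antisense genes were 19 higher and 6 lower of 27, LINC genes 14 higher and 3 lower of 21, and genes without a symbol 20 higher and 16 lower of 44. Of the pseudogene-type symbols, a class defined after the data were seen, 12 of 22 were higher and 4 lower. For all tested genes the shares were 35.9% higher and 36.8% lower. The other lncRNA genes also leaned to higher, as given above, so this lean is not particular to a kind of symbol.

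For 35 of these genes the symbol names a coding partner that was tested. Between KO and WT cells the lncRNA had a median log2 fold change of 0.50 and the partner -0.14. In 30 pairs both passed, 16 in 1 direction and 14 in opposite ones. Across the 35 pairs, which come from the same libraries, Pearson's r was 0.16. NOP14-AS1 stood at 2.20 while NOP14, a factor of small ribosomal subunit assembly, stood at -0.22. SLCO4A1-AS1 at -0.91 and the transporter gene SLCO4A1 at -0.95 ran together. NOP14-AS1 and SLCO4A1-AS1 have exons opposite their partner's exons. The library kit keeps the strand, but whether the authors' counting used it is not given in the sources used here, so reads of such pairs may be mixed. For 84 genes with at least 3 coding neighbours within 500 kb, the lncRNA and the median of its neighbours had r = 0.31 across genes.

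**Figure D3:**
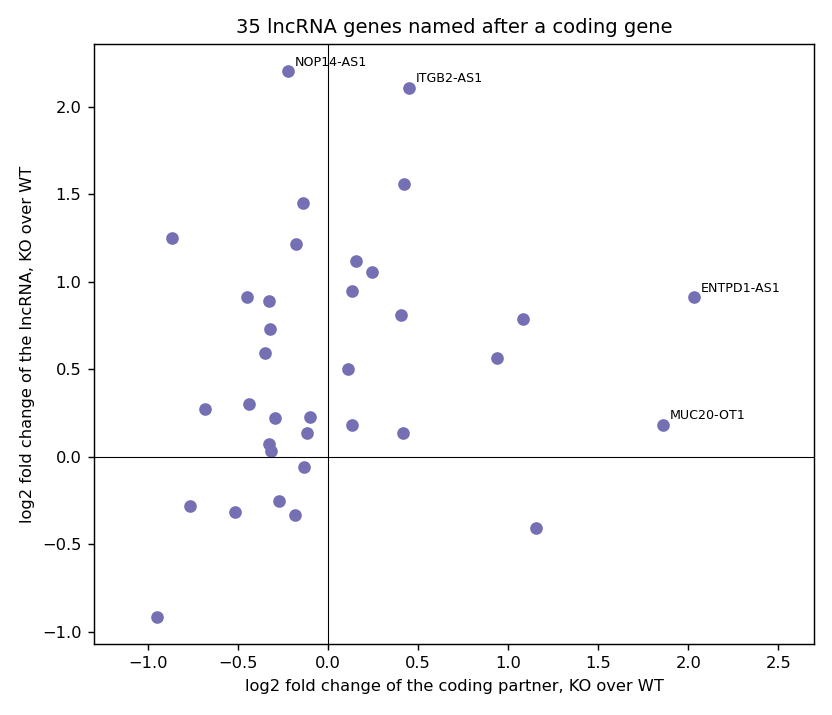
Each point is 1 of 35 lncRNA genes named after a coding gene; the horizontal axis gives the partner's log2 fold change and the vertical axis the lncRNA's, both KO over WT. NOP14-AS1 lies highest, at 2.20, while its partner lies below 0.

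The next 4 comparisons ask what guanosine or returned IMPDH2 does in the knockout. They share the 3 KO libraries, so their values stand side by side only. With guanosine 41 of the 150 genes were higher than in KO cells and 74 lower, where 56.5% of all genes passed, 27.3% higher and 29.2% lower. With IMPDH2 24 were higher and 81 lower, against 50.8% of all genes, 25.7% higher and 25.1% lower. With nuclear IMPDH2 32 were higher and 77 lower, against 53% of all genes, 26.1% higher and 26.9% lower. With cytosolic IMPDH2 28 were higher and 68 lower, against 50.6% of all genes, 24.6% higher and 26% lower. The median log2 fold changes were -0.16, -0.18, -0.20 and -0.09 in that order, against -0.02, -0.01, -0.02 and -0.02 for all genes. The other lncRNA genes moved the same way and further, with medians of -0.29, -0.25, -0.28 and -0.19, so the fall is not particular to the 150. Genes of like level ran the other way: 41.5% were higher and 32% lower with guanosine, 41.2% and 26.6% with IMPDH2, 41.6% and 27.6% with the nuclear form, and 40.2% and 27.4% with the cytosolic form. With an offset for transcript length, higher genes numbered 22 with guanosine, 20 with the nuclear form and 18 with the cytosolic form.

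**Figure D4:**
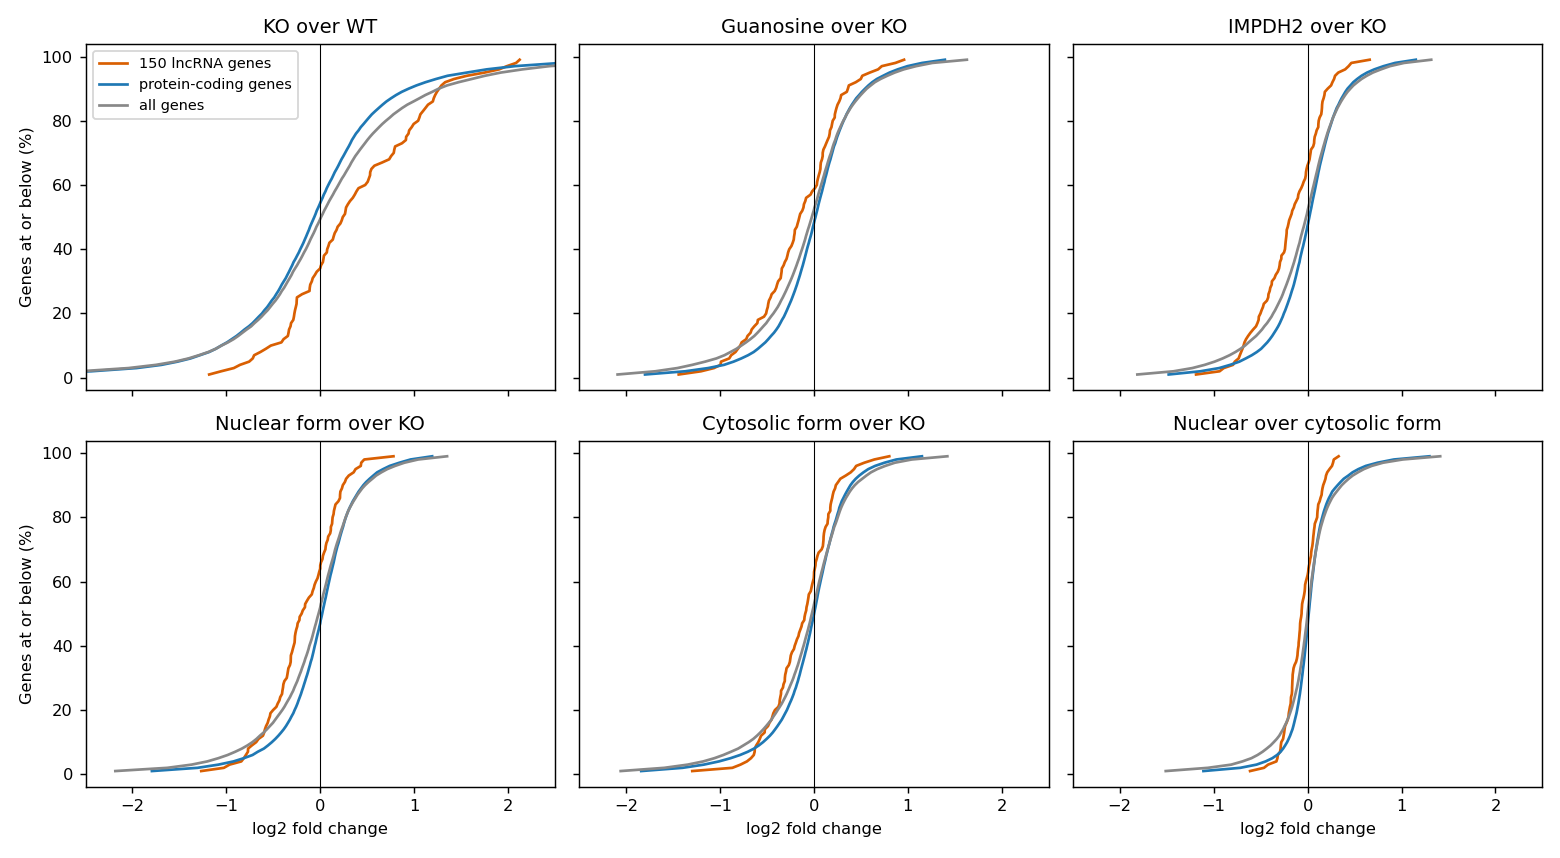
Cumulative share of genes (%) at or below each log2 fold change in 6 comparisons, for the 150 lncRNA genes, coding genes and all genes tested. The lncRNA curve lies to the right of the others over most of KO over WT (median 0.24 against 0.01 for all genes) and to the left near the median in the comparisons with KO.

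The nuclear-body RNAs were lower than in KO cells in all 4 groups. NEAT1 had 677.0, 730.5 and 776.5 CPM in KO+G libraries, 786.8, 753.9 and 896.4 in KO+IMPDH2 libraries, 672.2, 654.1 and 616.7 in KO+Nuclear-IMPDH2 libraries and 593.8, 630.5 and 663.9 in KO+Cyt-IMPDH2 libraries. All 12 values lay below the lowest KO value, 1010 CPM, and above the highest WT value, 432.2 CPM. The log2 fold changes against KO were -0.50, -0.34, -0.67 and -0.71 in that order, each with an SE of 0.06. MALAT1 averaged 109.0 CPM in KO+G, 117.4 in KO+IMPDH2, 108.1 in KO+Nuclear-IMPDH2, 121.0 in KO+Cyt-IMPDH2, 220.1 in KO and 96.1 CPM in WT cells. Its log2 fold changes against KO were -1.01, -0.91, -1.02 and -0.86, each ± 0.06. Of the 18 paraspeckle protein genes 16, 16, 15 and 15 were higher than in KO cells, and 0, 2, 1 and 0 lower. Of all tested genes 27.3%, 25.7%, 26.1% and 24.6% were higher, and genes of like level leaned to higher, as given above.

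Of the 9 divergent transcripts 7 were lower than in KO cells in each of the 4 groups, and 1 was higher, or 2 with the nuclear form. Of the 27 antisense genes 17, 19, 17 and 15 were lower and 7, 6, 5 and 5 higher with guanosine, IMPDH2, the nuclear form and the cytosolic form. In the same order, 29.2%, 25.1%, 26.9% and 26% of all tested genes were lower and 27.3%, 25.7%, 26.1% and 24.6% higher. The other lncRNA genes also leaned to lower, as given above.

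AADACP1 fell furthest in each of these groups. It averaged 17.3 CPM with guanosine, 19.9 with IMPDH2, 16.2 with the nuclear form and 18.4 with the cytosolic form, against 59.7 CPM in KO cells. No library of the 4 groups came near the KO range, and the log2 fold changes ran from -1.88 ± 0.04 with the nuclear form to -1.58 ± 0.04 with IMPDH2. NOP14-AS1 had 21.9 to 22.1 CPM with guanosine, 22.3 to 22.5 with IMPDH2, 20.6 to 22.8 with the nuclear form and 24.4 to 26.9 with the cytosolic form, against 55.2 to 59.4 CPM in KO libraries. ITGB2-AS1 fell by 0.89 with guanosine, 1.01 with IMPDH2, 1.14 with the nuclear form and 1.42 with the cytosolic form on the log2 scale. SFTA1P, a pseudogene-type RNA, fell by 0.38 with guanosine, 0.88 with IMPDH2, 0.79 with the nuclear form and 0.84 with the cytosolic form.

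LINP1 rose in all 4 groups, and most with guanosine. It had 39.1, 38.9 and 37.9 CPM in KO+G libraries, 22.8, 22.6 and 25.2 in KO+IMPDH2 libraries, 30.9, 29.1 and 29.9 in KO+Nuclear-IMPDH2 libraries and 25.5, 25.5 and 25.1 in KO+Cyt-IMPDH2 libraries. The KO libraries, at 13.5 to 15.4 CPM, lay below every one of these. The log2 fold changes against KO were 1.40, 0.69, 1.03 and 0.79, each ± 0.05 (largest edgeR adjusted p = 4.04e-09). Guanosine against IMPDH2, a comparison added after the data were seen, gave 0.72 ± 0.05 (edgeR adjusted p = 3.07e-09). In KO+G cells LINP1 was also above WT cells, by 0.68 ± 0.05.

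MIR100HG rose with each form of the enzyme and fell with guanosine. It averaged 20.3 ± 0.761 CPM in KO+G cells, 31.4 ± 1.95 in KO+IMPDH2, 32.6 ± 1.48 in KO+Nuclear-IMPDH2, 31.3 ± 0.910 in KO+Cyt-IMPDH2 and 22.8 ± 0.780 in KO cells. Its log2 fold change against KO was -0.17 ± 0.05 with guanosine (edgeR adjusted p = 0.00699) and 0.46, 0.51 and 0.46 with the 3 forms. The difference between guanosine and IMPDH2 was -0.64 ± 0.05 (edgeR adjusted p = 1.79e-08). All 4 groups stayed below the WT libraries, the lowest of which had 52.5 CPM.

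Other genes rose with guanosine, and each of the 4 described here also rose with at least 1 form of the enzyme. LINC00707 had 28.4, 28.9 and 26.7 CPM in KO+G libraries, against 16.1, 13.0 and 13.8 CPM in KO libraries, while WT libraries had 5.60 to 6.46 CPM. Its log2 fold change against KO cells was 0.97 ± 0.08 with guanosine, 0.47 with the nuclear form and 0.28 with the cytosolic form, while 0.15 with IMPDH2 did not pass. LINC01224 had 28.0, 28.3 and 31.8 CPM in KO+G libraries, against 17.0, 15.2 and 16.2 CPM in KO libraries, a log2 fold change of 0.86 ± 0.06. With the cytosolic form it rose by 0.17, while 0.11 with IMPDH2 and -0.00 with the nuclear form did not pass. Both were also higher with guanosine than with IMPDH2, by 0.82 and 0.75. LINC03061 rose by 0.71 with guanosine, 0.24 with IMPDH2, 0.32 with the nuclear form and 0.64 with the cytosolic form. ESRG, a gene known from embryonic stem cells, rose by 0.68, 0.31, 0.36 and 0.61 in the same order.

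PURPL fell with guanosine by 0.35 on the log2 scale, and with the 3 forms it had log2 fold changes of -0.00, -0.17 and -0.00 that did not pass. The DUXAP genes had log2 fold changes of -0.35 to -0.06 against KO in the 4 groups, and DUXAP8 remained 1.03 to 1.30 above WT cells on the log2 scale. Set against WT cells, 76 of the 150 genes were higher and 39 lower with guanosine (63.9% of all genes passed), 74 and 46 with IMPDH2 (64.5%), 75 and 40 with the nuclear form (65%) and 79 and 42 with the cytosolic form (67.6%). The choice by summed counts bears on these splits too, as described for KO and WT cells.

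The comparison of nuclear with cytosolic IMPDH2 asks whether the place of the enzyme matters. Of the 150 genes 18 were higher with the nuclear form and 43 lower, where 23.9% of all genes passed, 13.4% higher and 10.5% lower. Among genes of like level 32.8% passed, 18.1% higher and 14.7% lower. No lncRNA gene of the 150 reached 2-fold in either direction. The median log2 fold change was -0.06, against 0.00 for all genes and -0.09 for the other lncRNA genes. IMPDH2 itself was lower with the nuclear form, at a log2 fold change of -0.35, and its part in these differences was not tested. With an offset for transcript length 7 genes were higher and 17 lower, and calls over all genes numbered 1856, against 4600 without it.

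A pair of genes stood out in size. SLCO4A1-AS1 had 41.3, 37.2 and 41.7 CPM with nuclear IMPDH2, against 20.0, 20.1 and 21.1 CPM with cytosolic IMPDH2. The groups were far apart, and the log2 fold change was 0.97 ± 0.08 (edgeR adjusted p = 1.34e-07). Its level was 34.4 CPM with guanosine, 36.5 with IMPDH2, 17.9 in KO and 33.7 in WT cells. SLCO4A1, on the opposite strand, had 189.3 ± 8.84 CPM with nuclear IMPDH2 and 116.1 ± 5.73 CPM with cytosolic IMPDH2 (log2 fold change 0.71 ± 0.05). Exons of SLCO4A1 lie opposite those of SLCO4A1-AS1, and whether the counting used the strand is not given. Reads of the more abundant SLCO4A1 may thus be part of the SLCO4A1-AS1 values, which was not tested.

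LUCAT1 ran the other way. It had 14.6, 17.2 and 13.4 CPM with nuclear IMPDH2, against 28.7, 28.1 and 29.9 CPM with cytosolic IMPDH2, a log2 fold change of -0.94 ± 0.08 (edgeR adjusted p = 9.98e-08). Against KO cells LUCAT1 fell by 0.84 with the nuclear form, and with the cytosolic form its log2 fold change of 0.10 ± 0.07 did not pass. With guanosine it had 9.29, 9.41 and 10.0 CPM, against 25.9, 29.4 and 25.5 CPM in KO libraries and 12.1, 11.9 and 10.7 CPM in WT libraries.

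Promoter windows of this pair are shown because the 2 genes differed most between the forms. Each window holds 300 bases around the RefSeq start (GRCh38.p14), on the minus strand, and capitals mark a match to a searched motif.
SLCO4A1-AS1 (chr20:62666572-62666871): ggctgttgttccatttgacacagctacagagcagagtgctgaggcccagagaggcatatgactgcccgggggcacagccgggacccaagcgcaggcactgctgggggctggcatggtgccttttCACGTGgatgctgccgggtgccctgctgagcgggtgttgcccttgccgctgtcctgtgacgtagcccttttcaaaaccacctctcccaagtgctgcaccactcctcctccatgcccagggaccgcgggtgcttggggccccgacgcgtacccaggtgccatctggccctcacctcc
LUCAT1 (chr5:91314353-91314652): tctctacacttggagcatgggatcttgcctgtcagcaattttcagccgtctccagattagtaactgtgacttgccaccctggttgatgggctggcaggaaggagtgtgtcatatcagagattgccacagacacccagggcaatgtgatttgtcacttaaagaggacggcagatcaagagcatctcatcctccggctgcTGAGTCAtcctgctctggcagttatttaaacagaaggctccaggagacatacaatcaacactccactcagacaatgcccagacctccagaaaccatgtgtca

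Motifs were searched on both strands in the 67 of the 150 genes that matched the promoter table by symbol. The E-box CACGTG, in the SLCO4A1-AS1 window, occurred in 10.4% of the 67 and in 7.26% of all 35116 promoters. The AP-1 motif TGANTCA, in the LUCAT1 window, occurred in 11.9% and 7.71%. The cyclic AMP element TGACGTCA occurred in 1.49% and 1.85%, the E2F motif TTTNGCGC in 1.49% and 1.79%, and the TATA box TATAAA in 2.99% and 11.5%. The interferon response motif and TGATGCAA, a C/EBP and ATF motif, occurred in 0 of the 67, against 3.57% and 0.866% of all. A match of letters is a description and shows no binding.

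The other differences between the forms were smaller, and only the largest with no overlap between the groups are listed. Higher with the nuclear form were LINC00261, a neighbour of FOXA2, with a log2 fold change of 0.35 ± 0.04, GUSBP11 with 0.31, ITGB2-AS1 and ENSG00000291175 with 0.28 each, ENSG00000261786 and MANCR with 0.26 each, and LINP1 with 0.24. MANCR had 98.2, 97.2 and 98.4 CPM with nuclear IMPDH2, against 82.7, 81.0 and 81.8 CPM with cytosolic IMPDH2. Lower were ENSG00000290032 with -0.68, AP1G2-AS1 with -0.54, MIR23AHG with -0.46, ENSG00000291126 with -0.44, TRIM16L with -0.40, and ASB16-AS1 and ENSG00000267279 with -0.33 each. ENSG00000290032 is the 248-base transcript described above, so its value calls for caution. With the length offset GUSBP11, ITGB2-AS1, ENSG00000291175, TRIM16L and ASB16-AS1 no longer passed. NEAT1 differed by 0.04 ± 0.06 (edgeR adjusted p = 0.686) and MALAT1 by -0.16 ± 0.06 (edgeR adjusted p = 0.0501).

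**Figure D5:**
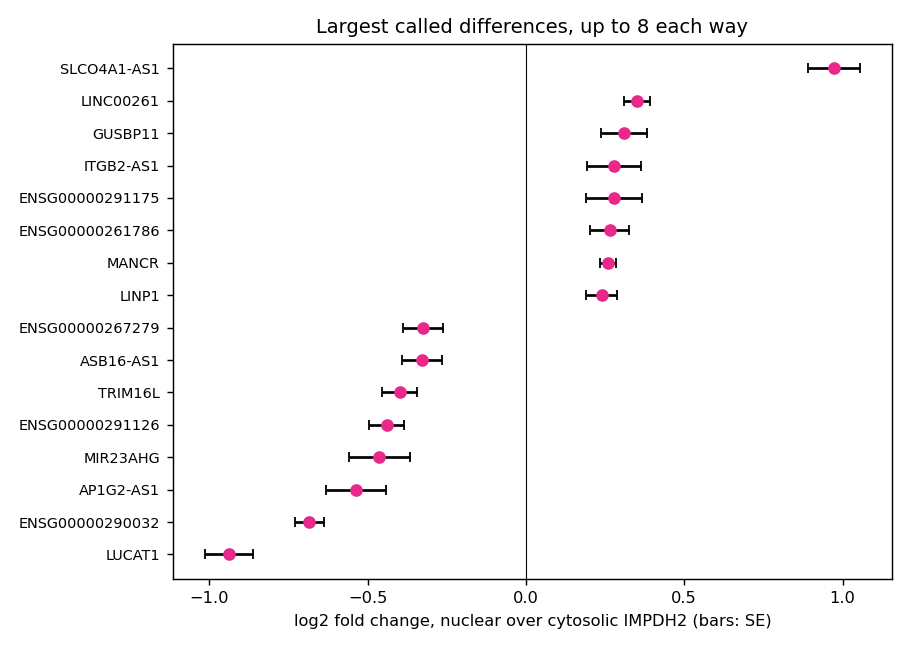
log2 fold change, nuclear over cytosolic IMPDH2, of the lncRNA genes with the largest called differences, up to 8 in each direction; bars are SE. SLCO4A1-AS1 at 0.97 and LUCAT1 at -0.94 lie furthest from 0.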

How the data were processed

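Per the file headers, the deposited tables held the authors' estimated (expected) counts, TPM and effective lengths (a length score in bases) from Salmon for 252048 transcripts. The submitters' processing notes name Trim Galore 0.6.10, Salmon 1.10.0 and the build hg19. Deposited estimated counts were summed to genes and rounded. Coordinates came from GENCODE 29 (GRCh38) by gene identifier for 108 of the 150 genes and from RefSeq GRCh38.p14 by symbol for 16.

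All 18 libraries entered 1 edgeR 4.0.16 fit (R 4.3.3) with TMM, filterByExpr (19252 genes) and the quasi-likelihood test, Benjamini-Hochberg adjusted over all genes within each comparison at 0.05. SE is the absolute log2 fold change divided by the root of F. The 95% interval spans 1.96 SE each way, a normal approximation that is somewhat narrow for groups of 3 libraries. DESeq2 1.42.0, other scalings, a length offset and each library left out were alternatives. Scripts were tested on simulated data.

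The genes named were the 10 highest by mean TPM, up to 8 called genes each way per main comparison (average log2 CPM from 1 up, groups not overlapping) and the role lists. The members and lists were chosen with earlier results of these data known. The cell line field of the labels rises by 1 per sample and was taken as 1 line. Raw reads were not analysed here.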

Additional observations from a re-analysis of the deposited data

Results flagged for a closer look

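Effects of the nuclear and the cytosolic form were compared directly in the edgeR fit. Of the 150 lncRNA genes 61 passed, 18 higher and 43 lower with the nuclear form, where 23.9% of all genes passed. The 16 given here are only the largest differences, 8 each way, among those with no overlap between the groups. Nuclear over cytosolic, the log2 fold changes were 0.97 for SLCO4A1-AS1, 0.35 for LINC00261, 0.31 for GUSBP11, 0.28 for ITGB2-AS1, 0.28 for ENSG00000291175, 0.26 for ENSG00000261786, 0.26 for MANCR and 0.24 for LINP1. They were -0.94 for LUCAT1, -0.68 for ENSG00000290032, -0.54 for AP1G2-AS1, -0.46 for MIR23AHG, -0.44 for ENSG00000291126, -0.40 for TRIM16L, -0.33 for ASB16-AS1 and -0.33 for ENSG00000267279. With the length offset GUSBP11, ITGB2-AS1, ENSG00000291175, TRIM16L and ASB16-AS1 no longer passed. ITGB2-AS1 and ENSG00000291175 also lost their call without some single libraries, as given below. Reads of SLCO4A1-AS1 may be mixed with those of SLCO4A1, and ENSG00000290032 is a short transcript, as given above.

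Guanosine and given-back IMPDH2 were compared in the same way after the data were seen. Of the 150 genes 43 were higher with guanosine and 33 lower, where 37.6% of all genes passed. Guanosine over IMPDH2, the largest log2 fold changes were 0.82 for LINC00707, 0.75 for LINC01224, 0.72 for LINP1 and 0.58 for ENSG00000258964, and -1.11 for LUCAT1, -0.76 for AP1G2-AS1, -0.73 for ARHGAP27P1-BPTFP1-KPNA2P3 and -0.64 for MIR100HG. Reads of ENSG00000258964 may be split with HIF1A and SNAPC1, whose exons it shares.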

How the results depend on the processing

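Among the alternatives run, only the offset for average transcript length moved a count of called genes by more than 1.5 times. It gave 22 higher with guanosine, 20 with the nuclear form and 18 with the cytosolic form against KO, and 7 higher and 17 lower for nuclear over cytosolic IMPDH2; the cause was not tested. No named gene reversed, and of 2496 single-gene alternatives 13 no longer passed, in 7 results. With 1 library left out, KO over WT kept 83 to 88 higher and 34 to 40 lower genes, guanosine over KO 34 to 41 and 68 to 75, IMPDH2 over KO 22 to 26 and 74 to 82, the nuclear form over KO 25 to 32 and 74 to 81, the cytosolic form over KO 23 to 28 and 63 to 70, and nuclear over cytosolic 12 to 18 and 31 to 45. ITGB2-AS1 (nuclear over cytosolic) lost its call without nuclear library 1 or 2 or cytosolic library 2, at log2 fold changes of 0.20 to 0.28, and ENSG00000291175 without nuclear library 2 or cytosolic library 2 or 3, at 0.20 to 0.24. Replicate numbers did not pair the libraries: the median correlation of same-numbered deviations was -0.0008 to -0.009, and 4 of 18 libraries correlated best with their own number. With the replicate number as a block, 86 genes were higher and 37 lower in KO over WT, and 18 and 42 in nuclear over cytosolic. Without NEAT1 the difference in the share of counts, KO minus WT, was 0.171 percentage points, against 0.241 with it.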
